A study of Rattus norvegicus with 15 samples.

Results

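Synovial RNA of 5 rats with adjuvant-induced arthritis (AIA) that received an anti-cANGPTL4 antibody was compared with that of 5 AIA rats for which no antibody is named. These 10 libraries, of 15 in the series, were chosen by their titles, as Ab 3, 9, 10, 12 and 21_8 and as AIA 5, 13, 18, 19 and 23. All 16046 genes that passed a filter on low counts were tested, of 23342 symbols in the count table. In the Ab group the rats carried AIA and were injected with the antibody into the peritoneum 2 times per week. In the Ab and AIA groups alike, arthritis was set off by an intradermal tail injection of Complete Freund's Adjuvant with a volume of 100 uL per rat, and no antibody is named for the AIA group. The 5 control (CON) rats had neither. All rats are labelled WT, and the tissue is labelled synovial. The labels give no strain, age, sex, batch, duration of treatment, vehicle or isotype antibody, so the effect of the antibody's target cannot be told apart from that of receiving an injected antibody. The title of Ab 21_8 holds a pair of numbers, and whether it came from 1 rat is not stated.

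ANGPTL4 is a secreted protein made by fat, liver and many stressed tissues. Its N-terminal part inhibits lipoprotein lipase, the enzyme that frees fatty acids from circulating triglycerides, and its C-terminal fibrinogen-like part, cANGPTL4, is released by cleavage and is known to bind integrins and matrix proteins. Synovium is a thin lining of fibroblasts and macrophages over a sublining of fibroblasts, vessels, fat and resident leukocytes. In arthritis it gains leukocytes, and its fibroblasts make matrix and matrix-degrading proteases.

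Library totals lay between 31172215 and 34084345 counts. The lubricin gene Prg4, which defines lining fibroblasts, stood at 4537 CPM (counts scaled to a common library total) on average in Ab, 4569 in AIA and 8692 in CON libraries, which fits the tissue label. Skeletal muscle genes summed to 18500 CPM in AIA 19 and 9760 CPM in CON 2, against 126 to 222 CPM in the other libraries. On the first principal component, with 26.3% of the variance, AIA 18, 19 and 23 scored between 44.6 and 72.6, the Ab libraries between -29.5 and -15.5, and AIA 5 and 13 stood at -9 and -6.37. Values below rest on all libraries, and beside the main results stands the value without AIA 18, 19 and 23, called the reduced fit. Angptl4 itself was not called (edgeR log2 fold change 0.36 ± 0.31 SE, adjusted p = 0.532). It had 554, 318, 289, 425 and 463 CPM in Ab libraries, against 209, 586, 232, 412 and 155 CPM in AIA libraries, so the groups overlapped.

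In Ab synovium, 641 genes were lower than in AIA synovium and 294 were higher, at an adjusted p under 0.05 (edgeR quasi-likelihood test, Benjamini-Hochberg over all tested genes). These are 3.99% and 1.83% of the tested genes, 5.83% in all, and they are the background for every count of list members below. The lower genes had a median log2 fold change of -1.01 and the higher genes of 0.69, against 0 over all tested genes. In 261 lower and 151 higher genes all Ab libraries lay on the same side of all AIA libraries; over all tested genes, called or not, that held for 2.2% with Ab below and 1.61% with Ab above. A change of 4-fold or more was seen in 98 lower genes and 13 higher genes. The plot of fold change against level shows this lean: genes of the extracellular matrix such as Lum, Ccn5 and Tnn reach far below 0, while the higher genes stay within a narrower band. In bulk tissue, fewer cells of a type and less RNA per cell cannot be told apart, which holds for every cell type named below.

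**Figure D1:**
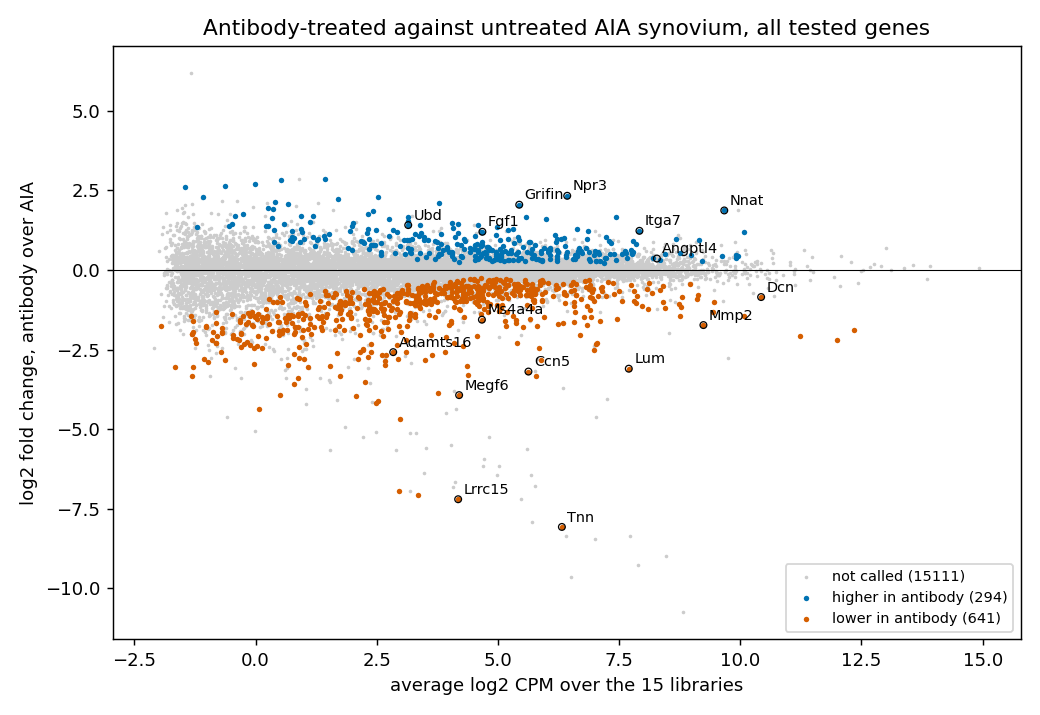
Each point is 1 of the 16046 tested genes, with its average log2 CPM over all libraries on the x axis and its log2 fold change, Ab over AIA, on the y axis; orange points are the 641 lower and blue points the 294 higher genes at an adjusted p under 0.05. The lower genes extend to Tnn at -8.07, and Angptl4, at 0.36, lies among the genes not called.

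The number of calls depended on single libraries. With 1 library left out at a time, the count of lower genes ranged from 139 (without Ab 10) to 1278 (without AIA 5), and that of higher genes from 48 (without Ab 10) to 754 (without AIA 5). Leaving out AIA 18, AIA 19 or AIA 23 gave 174, 222 or 173 lower genes, while leaving out AIA 13 gave 1217. In all 10 of these runs, 159 genes stayed called, 121 lower (0.754% of the tested genes) and 38 higher (0.237%). These 159 genes are described first in each group below and are said to be called in every run. That term covers only these 10 runs. In each of 8 other fits, which do not include the reduced fit, 82 of the 159 genes were called, 57 lower and 25 higher. With the 10 Ab and AIA libraries alone, Col5a2, Col6a3, Lox, Fkbp10, Thbs4 and Mfap4 lost their calls. So did Has2, Sfrp1, Pdpn, Ctsk, Il17ra and Ttpa. Sfrp1 and Ccn4 lost their calls under limma voom with a spread per group. Col5a2 and Fkbp10 lost theirs when AIA 19 and CON 2 were left out. In the reduced fit, which sets 5 Ab against 2 AIA libraries, 1 gene was called, Adamts16. It belongs to the ADAMTS family described below, and no member of the 41 gene lists was called. Of the 935 genes, 913 still had the same sign there, with medians of -0.46 for the lower and 0.49 for the higher genes. That fit reuses the Ab libraries and 2 AIA libraries that gave the calls, so much of the agreement in sign was fixed in advance. The size of the fold change was smaller for 882 genes and as large or larger for 53.

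**Figure D2:**
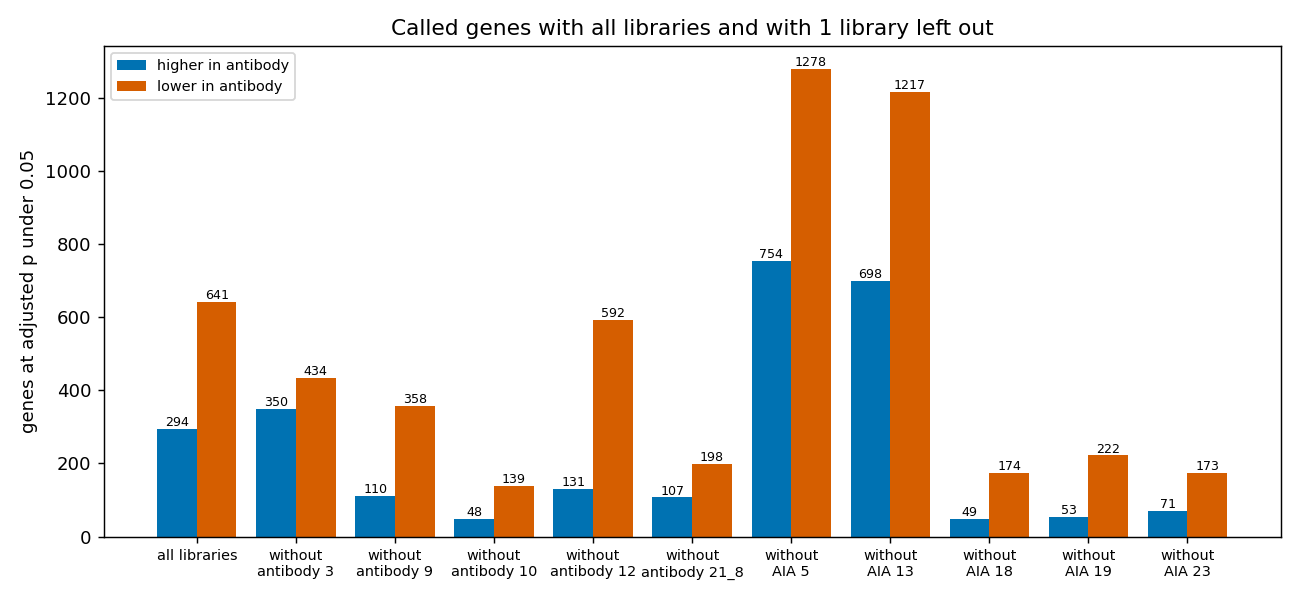
Bars count genes called higher (blue) and lower (orange) in Ab than in AIA libraries with all libraries and with each Ab or AIA library left out. Without AIA 5 or AIA 13 the counts rise to 1278 and 1217 lower genes, and without Ab 10, AIA 18 or AIA 23 they are between 139 and 174.

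Secreted proteases were lower in Ab synovium. The lowest adjusted p of the whole comparison belonged to Adamts16, a secreted metalloproteinase with thrombospondin repeats, and to Ms4a4a, described with the macrophage genes. Adamts16 had 1.95, 1.68, 2.78, 2.55 and 2.47 CPM in Ab 3, 9, 10, 12 and 21_8, against 7.23, 9.51, 14.7, 14.7 and 22.4 CPM in AIA 5, 13, 18, 19 and 23; all further values follow this order of libraries. Every Ab library lay below every AIA library, and CON libraries lay in between at 3.74 to 7.09 CPM. The fitted level was 5.98-fold lower in Ab (log2 fold change -2.58 ± 0.28 SE, adjusted p = 0.000903). Without AIA 18, 19 and 23 the log2 fold change was -1.87, with an adjusted p of 0.0426.

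Mmp2, or gelatinase A, had 253, 314, 344, 381 and 311 CPM in Ab libraries, against 529, 696, 1620, 1150 and 1330 CPM in AIA libraries. AIA 18, 19 and 23 were the highest, but AIA 5 and 13 also exceeded all Ab libraries. Its log2 fold change was -1.73 ± 0.24 SE (adjusted p = 0.00791), and -0.94 without the 3 high AIA libraries (adjusted p = 0.15). Mmp14, the membrane protease that activates pro-MMP2, had 163, 180, 197, 200 and 147 CPM in Ab libraries, against 232, 343, 600, 463 and 435 CPM in AIA libraries. Again the groups did not overlap, and the log2 fold change was -1.22 ± 0.20 SE (adjusted p = 0.0107), and -0.70 in the reduced fit (adjusted p = 0.563). Ctsk, which encodes the collagen-degrading cathepsin K of osteoclasts and fibroblasts, had 64.3, 47.2, 48.3, 70.2 and 54.2 CPM in Ab libraries, against 70.5, 94.5, 207, 165 and 179 CPM in AIA libraries. The gap between AIA 5 and Ab 12 was small, and the log2 fold change was -1.33 ± 0.23 SE (adjusted p = 0.011), and -0.54 in the reduced fit (adjusted p = 0.565). Ctsk was the only called gene of the 10 tested osteoclast genes. Of these, 5 had positive and 5 negative log2 fold changes (median -0.11, and -0.1 in the reduced fit).

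Over the list of stromal metalloproteinases and their inhibitors, 10 of 32 tested members were lower and 1, Adam33, was higher, with a median log2 fold change of -0.50, and of -0.22 in the reduced fit. Called in every run were Mmp2, Mmp14, Mmp11 (-1.48), Adamts7 (-0.89), whose product cleaves COMP, and Adamtsl1 (-1.25), which encodes an ADAMTS-like protein without a protease domain; the last 3 stood at -0.51, -0.60 and -0.56 in the reduced fit. Timp1, an inhibitor of these proteases, also fell, with a log2 fold change of -1.20 ± 0.27 SE (adjusted p = 0.0239) and -0.45 in the reduced fit. Mmp3, or stromelysin-1, averaged 75.2 ± 30.8 CPM in Ab and 209 ± 96.2 CPM in AIA libraries (SD, n = 5 each; log2 fold change -1.48, adjusted p = 0.028), with -0.88 in the reduced fit. Without Ab 10, AIA 18 or AIA 23 the list had 5 lower members. In the ADAMTS family, a group put together after its values were seen, 5 of 18 tested members were lower and Adamts9 was higher; the lower count was 2 without Ab 10 or AIA 18, 3 without Ab 3, Ab 9, Ab 12, Ab 21_8, AIA 19 or AIA 23, and 7 without AIA 5 or AIA 13.

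Genes for collagens and for the enzymes that fold and cross-link them were lower in Ab synovium. Of 39 tested collagen genes, 12 were lower and none was higher, with a median log2 fold change of -0.47, and of -0.11 in the reduced fit. Summed collagen genes reached 11600 to 14600 CPM in Ab libraries, against 14800 and 16300 CPM in AIA 5 and 13 and 40200 to 52500 CPM in AIA 18, 19 and 23. Called in every run were Col5a2, a fibril-forming chain, at -1.08 ± 0.22 SE (adjusted p = 0.0187) and Col6a3, a chain of microfibrillar collagen VI, at -1.16 ± 0.24 SE (adjusted p = 0.0189); in the reduced fit they stood at -0.34 and -0.46. Col1a1, the main fibrillar chain, had 1850, 1370, 2020, 2090 and 1380 CPM in Ab libraries, against 2400, 2470, 14500, 10500 and 10300 CPM in AIA libraries. AIA 18, 19 and 23 stood far above the rest, and AIA 5 and 13 exceeded the highest Ab library by a small margin. The log2 fold change of Col1a1 was -2.21 ± 0.47 SE (adjusted p = 0.0197), and -0.49 in the reduced fit (adjusted p = 0.879). The count of lower collagens was 6 without Ab 9 or AIA 19, 4 without AIA 23, 3 without Ab 21_8 or AIA 18 and 2 without Ab 10.

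Among genes for collagen folding, modification and cross-linking, 12 of 32 tested members were lower and none was higher, with a median of -0.44, and of -0.04 in the reduced fit. Loxl1, which cross-links elastin, had 52.8, 89.7, 79.7, 92.5 and 75.2 CPM in Ab libraries, against 110, 144, 194, 233 and 167 CPM in AIA libraries. Lox, the lysyl oxidase that cross-links collagen, had 20.8, 17.9, 17.7, 21 and 13.7 CPM in Ab libraries, against 21.9, 21.1, 166, 122 and 117 CPM in AIA libraries. For Loxl1 all AIA libraries were above all Ab libraries (log2 fold change -1.12 ± 0.18 SE, adjusted p = 0.0107, and -0.71 in the reduced fit), whereas for Lox AIA 5 and 13 were near the Ab level. The log2 fold change of Lox was -2.30 ± 0.46 SE (adjusted p = 0.0161), and -0.25 without AIA 18, 19 and 23 (adjusted p = 0.883). Fkbp10, a collagen chaperone, was also called in every run (-0.96 ± 0.20 SE, adjusted p = 0.0173), with -0.29 in the reduced fit. Without Ab 10, Ab 21_8, AIA 18 or AIA 23 the list had 4 lower members, without Ab 9 it had 6, and without Ab 3 or AIA 19 it had 7.

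Small leucine-rich proteoglycans, which bind collagen fibrils and growth factors, were lower for 6 of 13 tested members (median -0.73, and -0.23 in the reduced fit), namely Dcn, Lum, Bgn, Podnl1, Fmod and Aspn. Dcn, which encodes decorin, had 740, 847, 702, 1090 and 903 CPM in Ab libraries, against 1170, 1730, 1670, 1520 and 1610 CPM in AIA libraries and 1280 to 2060 CPM in CON libraries. All Ab libraries lay below all AIA and all CON libraries. The log2 fold change was -0.85 ± 0.15 SE against AIA (adjusted p = 0.0124) and -1.02 against CON (adjusted p = 0.00142), with -0.76 against AIA when AIA 18, 19 and 23 were left out (adjusted p = 0.563).

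Lum, which encodes lumican, had 52.9, 70, 38.2, 65.5 and 52.8 CPM in Ab libraries, against 86, 132, 921, 371 and 889 CPM in AIA libraries. AIA 18 and 23 were the highest, and no AIA library reached down to the Ab range. Lum had a log2 fold change of -3.10 ± 0.58 SE (adjusted p = 0.0124), which was -0.97 without the 3 high AIA libraries (adjusted p = 0.695). With Ab 10, Ab 21_8, AIA 18 or AIA 23 left out, 2 members of this list were called lower, Dcn and Lum in each case, and 3 without Ab 9.

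Elastic-fibre and matricellular genes had the largest share of lower members among the 41 lists, 17 of 36, with a median log2 fold change of -1.16, and of -0.17 in the reduced fit. Their mean level, on the log2 scale relative to CON, was -0.71 to -0.37 in Ab libraries, against -0.32 and -0.20 in AIA 5 and 13 and 0.96 to 1.32 in AIA 18, 19 and 23. Called in every run were Thbs4 (-2.82), Mfap4 (-2.33) and Mfap2 (-1.47), a thrombospondin and a pair of microfibril-associated proteins; they stood at -0.72, -0.59 and -0.56 in the reduced fit. The count was 3 without Ab 10, 7 without AIA 23, 8 without AIA 18, 9 without Ab 21_8 or AIA 19, and 11 without Ab 9. Tnn, or tenascin-N, had the largest fold change of the called genes named by rule (-8.07 ± 1.62 SE, adjusted p = 0.0161). It had 0.217, 3.27, 0.096, 0.123 and 0.666 CPM in Ab libraries, against 0.478, 1.06, 658, 103 and 433 CPM in AIA libraries. Only AIA 18, 19 and 23 were high, the groups overlapped, and without those libraries the log2 fold change was 0.19 (adjusted p = 0.99). The call of Tnn was lost without Ab 10, under limma voom, and with the 10 Ab and AIA libraries alone. Lrrc15, a membrane protein of activated fibroblasts, had the same shape, with 0.217 to 0.57 CPM in Ab libraries and 0.687, 0.352, 163, 32.4 and 71.2 CPM in AIA libraries, and a reduced-fit log2 fold change of -0.54 (adjusted p = 0.977).

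**Figure D3:**
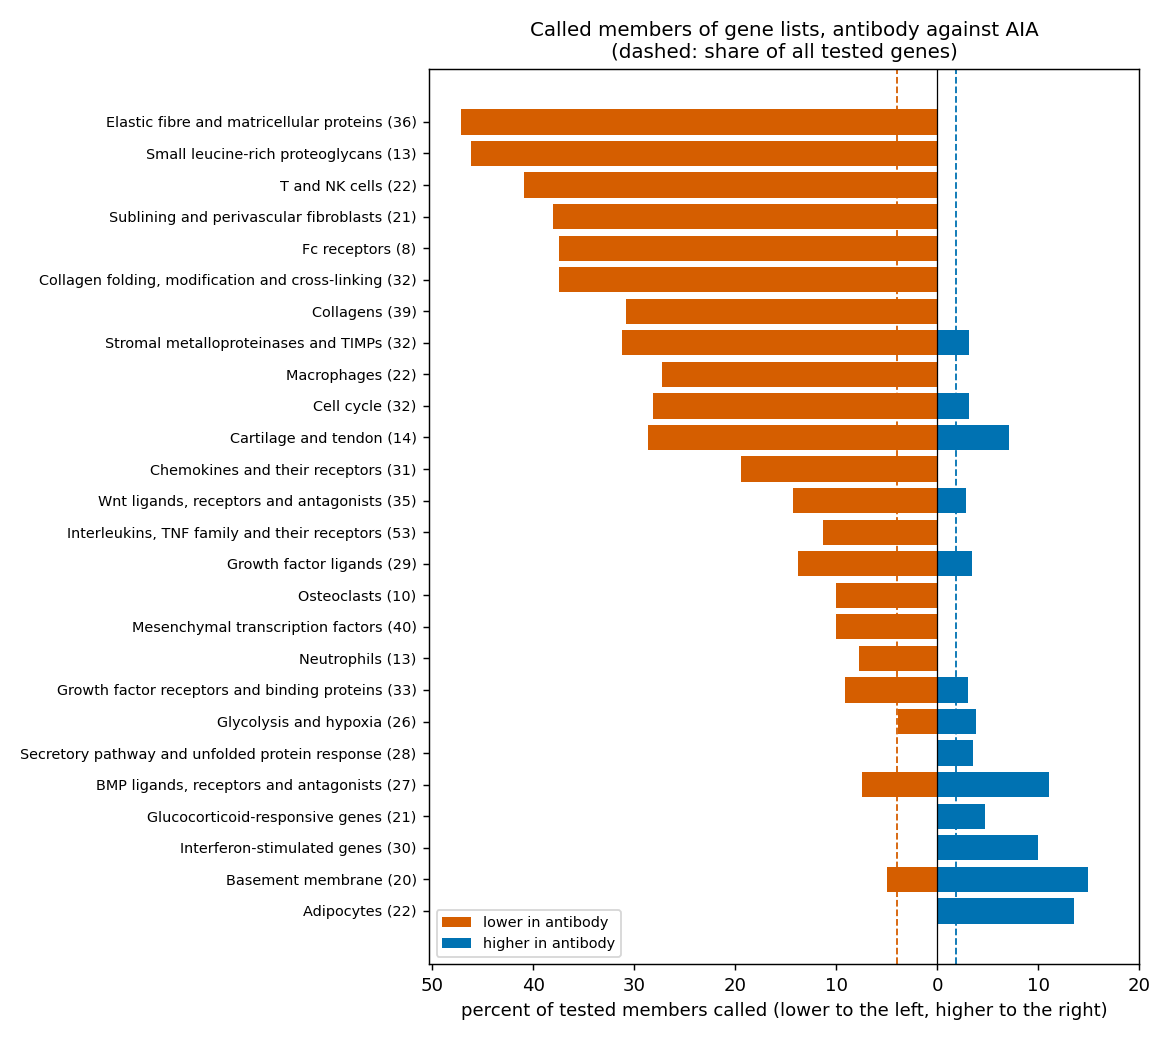
Bars give the percent of tested members of each gene list called lower (orange, to the left) or higher (blue, to the right) in Ab than in AIA libraries; the number tested is in parentheses, and dashed lines mark the shares over all tested genes, 3.99% and 1.83%. Matrix lists, T and NK cells, sublining fibroblasts and Fc receptors have the largest lower shares, and basement membrane, adipocyte, BMP and interferon lists the largest higher shares.

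Growth factors and secreted regulators of Wnt signalling changed in a few members. Of 29 tested growth factor ligands, 4 were lower and 1, Fgf1, was higher. The median was -0.05, and 0.06 in the reduced fit. The lower count was 2 without any 1 Ab library and without AIA 18, AIA 19 or AIA 23. The CCN proteins Ccn5 and Ccn4, matricellular proteins also known as WISP2 and WISP1, were both lower. Of 5 tested CCN genes, grouped after their values were seen, 2 had positive log2 fold changes, and the median was -0.10. Ccn5 had 7.96, 15.2, 9.34, 13.8 and 14.6 CPM in Ab libraries, against 23.8, 20.1, 235, 123 and 154 CPM in AIA libraries, a log2 fold change of -3.19 ± 0.55 SE (adjusted p = 0.0107). Every AIA library exceeded every Ab library, and without AIA 18, 19 and 23 the log2 fold change was -0.85 (adjusted p = 0.563). Ccn4 had a log2 fold change of -3.53 ± 0.65 SE (adjusted p = 0.0124), and -1.05 in the reduced fit.

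Of 35 tested Wnt ligands, receptors and antagonists, 5 were lower and 1, the co-receptor Lrp5, was higher, with a median of -0.16, and of 0.04 in the reduced fit. Called in every run were the secreted antagonists Sfrp4, Sfrp1 and Dkk3 and the Wnt5a receptor Ror2 (-1.69, and -0.71 in the reduced fit). Sfrp4 had 34.5, 55.6, 54.7, 48.1 and 59.8 CPM in Ab libraries, against 90.3, 144, 280, 670 and 248 CPM in AIA libraries, with no overlap (log2 fold change -2.50 ± 0.44 SE, adjusted p = 0.0117, and -1.21 in the reduced fit). Sfrp1 and Dkk3 had log2 fold changes of -2.58 ± 0.48 SE and -1.57 ± 0.29 SE (adjusted p = 0.0126 and 0.0124), and of -0.60 and -0.57 in the reduced fit. Without AIA 5 or AIA 13, 8 members of the list were lower. The higher count was 4 without AIA 5, 3 without AIA 13, and 0 without Ab 9, Ab 10, Ab 21_8, AIA 18, AIA 19 or AIA 23.

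Fibroblast genes of the sublining were lower for 8 of 21 tested members (median -0.66, and -0.14 in the reduced fit), while edgeR called none of the 13 tested lining genes (median 0.04); 3 of those had an unadjusted p under 0.05, and DESeq2 called 2, while edgeR called 2 lower without AIA 5 and 1 without AIA 13. The summed sublining list overlapped, with 5800 to 7210 CPM in Ab, 5360 to 7980 CPM in AIA and 8290 to 12300 CPM in CON libraries. AIA 18 and AIA 23, at 5360 and 5610 CPM, lay below all Ab libraries in this sum. The called members were Pdpn, Sfrp1, Has2, Apod, Comp, Prrx1, Mfap5 and Thy1. The difference between the sublining and lining lists was not tested. Pdpn, which encodes podoplanin and marks activated fibroblasts, had 31, 41.4, 30.8, 50.9 and 32.7 CPM in Ab libraries, against 46.2, 64.5, 86.9, 68.4 and 90.5 CPM in AIA libraries. Ab 12 exceeded AIA 5, and otherwise the groups were apart (log2 fold change -0.93 ± 0.17 SE, adjusted p = 0.0124, and -0.57 in the reduced fit). Has2, a hyaluronan synthase, fell 5.60-fold, with 2.17, 1.2, 0.96, 2.06 and 1.59 CPM in Ab libraries, against 2.93, 2.69, 15.7, 18 and 5.48 CPM in AIA libraries. Nox4, an NADPH oxidase of fibroblasts, fell 6.32-fold, with 1.62 to 2.43 CPM in Ab libraries, against 4.36, 2.75, 19.7, 21.5 and 18.3 CPM in AIA libraries. Both were called in every run (log2 fold change -2.48 and -2.66, adjusted p = 0.0155 and 0.0107), but in the reduced fit they stood at -0.82 and -0.76 (adjusted p = 0.695 and 0.667). The sublining list had 4 lower members without Ab 10, Ab 21_8, AIA 18 or AIA 23 and 5 without AIA 19.

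Pdgfra, the growth factor receptor that marks fibroblasts, had 67.8, 86.1, 62.9, 95.9 and 69.6 CPM in Ab libraries, against 99.7, 122, 189, 136 and 164 CPM in AIA libraries and 112 to 211 CPM in CON libraries. It was lower against AIA (-0.89 ± 0.18 SE, adjusted p = 0.0187), though not without Ab 10, with -0.54 in the reduced fit, and its log2 fold change against CON was -1.01.

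**Figure D4:**
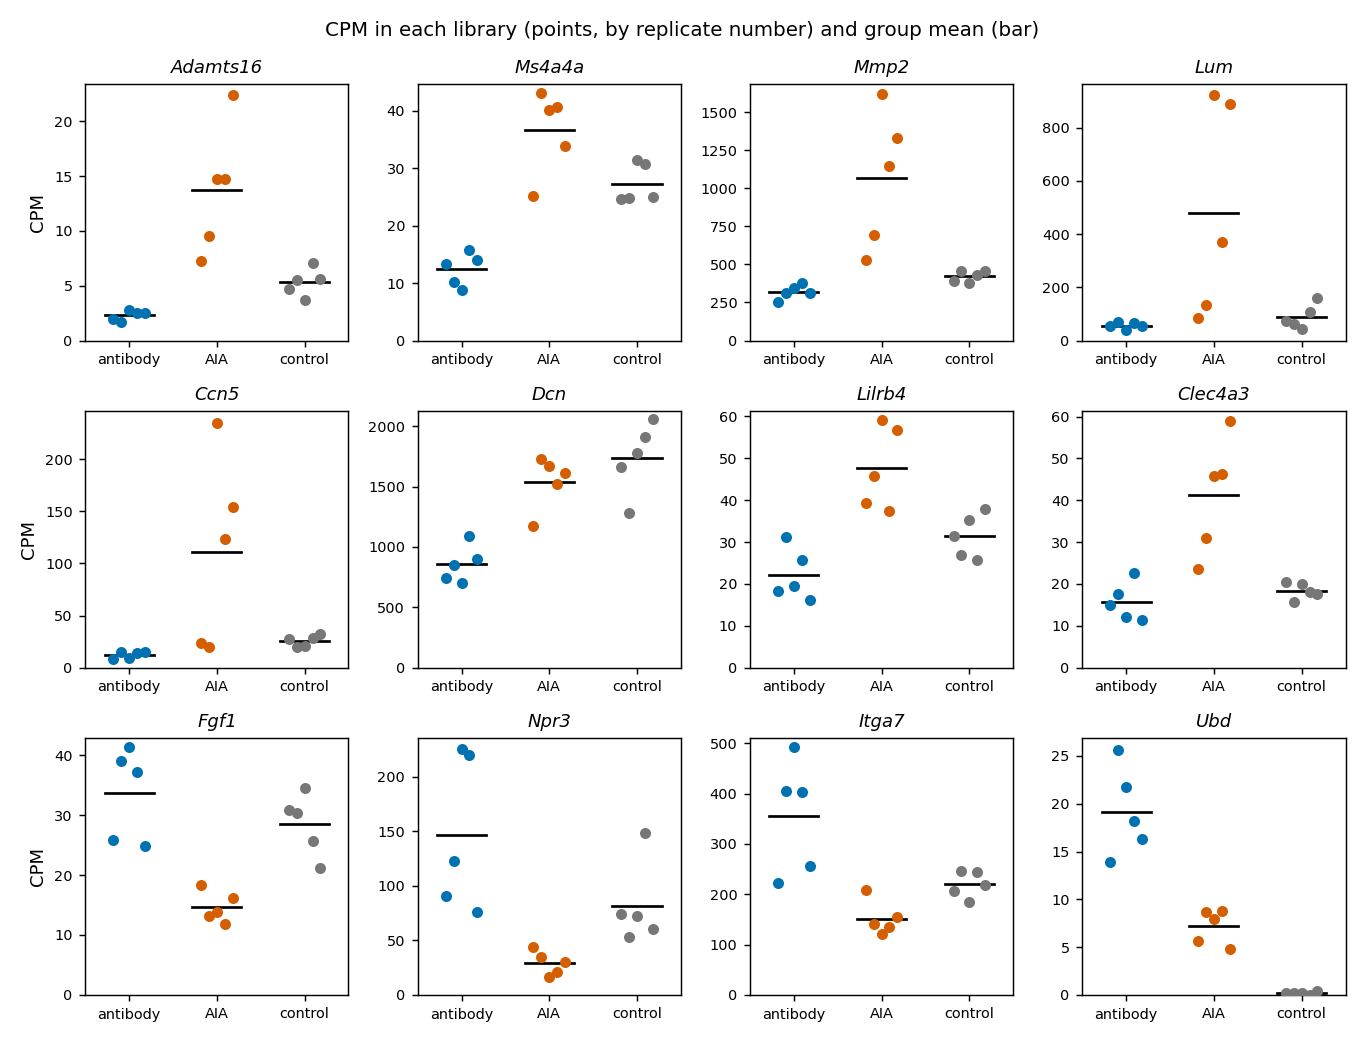
Points are CPM in the 5 libraries of each group, by replicate number from left to right, for 12 genes, with Ab (blue), AIA (orange) and CON (grey) side by side; bars are group means and the y axes start at 0. Adamts16, Ms4a4a, Mmp2, Lum, Ccn5, Dcn, Lilrb4 and Clec4a3 are lower in all Ab than in all AIA libraries, and Fgf1, Npr3, Itga7 and Ubd are higher.

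Myeloid receptor genes were lower in Ab synovium across several families. Ms4a4a, a tetraspan membrane protein of macrophages, had 13.3, 10.1, 8.73, 15.8 and 14.1 CPM in Ab libraries, against 25.2, 43, 40.2, 40.7 and 33.9 CPM in AIA libraries and 24.6 to 31.4 CPM in CON libraries. Every Ab library lay below every AIA and every CON library. The log2 fold change was -1.56 ± 0.17 SE against AIA (adjusted p = 0.000903) and -1.14 against CON (adjusted p = 0.00121). Without AIA 18, 19 and 23 it was -1.46 against AIA, with an adjusted p of 0.109.

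The inhibitory leukocyte receptor Lilrb4 had 18.2, 31.1, 19.5, 25.6 and 16.2 CPM in Ab libraries, against 39.3, 45.7, 59.2, 37.4 and 56.8 CPM in AIA libraries (log2 fold change -1.11 ± 0.18 SE, adjusted p = 0.0107). Clec4a3, a lectin-like receptor of dendritic cells and macrophages, had 14.9, 17.7, 12.1, 22.6 and 11.3 CPM in Ab libraries, against 23.6, 31, 45.9, 46.4 and 59 CPM in AIA libraries (-1.39 ± 0.23 SE, adjusted p = 0.0107). Tlr7, an endosomal sensor of single-stranded RNA, had 8.73, 10.9, 6.3, 11.2 and 8.12 CPM in Ab libraries, against 15, 20.5, 20.5, 17.7 and 17.3 CPM in AIA libraries (-1.01 ± 0.17 SE, adjusted p = 0.0107). In each of these genes all Ab libraries lay below all AIA libraries, and the lowest AIA library was AIA 19 for Lilrb4 and AIA 5 for Clec4a3 and Tlr7. In the reduced fit they stood at -0.95 for Lilrb4, -0.80 for Clec4a3 and -0.97 for Tlr7 (adjusted p = 0.563 for each). Adgre1, which encodes the macrophage marker F4/80, averaged 20.6 CPM in Ab and was lower by -1.07 ± 0.19 SE on the log2 scale (adjusted p = 0.012), with Ab 12 above AIA 5.

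Families put together after their values were seen describe how wide this was. All 6 tested Clec4 lectins were lower (median -1.44), as were 5 of 10 leukocyte immunoglobulin-like receptors (median -1.02), 4 of 8 Siglecs (median -0.97) and 6 of 11 MS4A genes (median -1.06). In the reduced fit the medians of the families were -0.79, -0.71, -0.84 and -0.88 in that order. No tested member of these families had a positive log2 fold change with all libraries. The lower counts were least without Ab 10, at 2, 3, 2 and 2 for the families in that order. They also fell by more than 1.5 times for Clec4 without AIA 18, AIA 19 or AIA 23 (3 each), for the leukocyte receptors without Ab 21_8, AIA 19 or AIA 23 (3 each), for Siglecs without Ab 21_8, AIA 18 or AIA 19 (2 each) and for MS4A genes without Ab 9 or AIA 23 (3 each) and without Ab 21_8 or AIA 18 (2 each). Called in every run were Clec4a1, Clec4a3, Lilrb2, Lilrb4, Pirb, Siglec10, Cd33, Ms4a4a and Ms4a7. Many of these genes have near-identical neighbours, so the split of reads between copies is uncertain. The Toll-like receptors, also grouped after their values were seen, changed less. Of 10 tested, 3 were lower and 1 had a positive log2 fold change (median -0.54, and -0.36 in the reduced fit). Their lower count ranged from 1 without Ab 10 or AIA 23 to 5 without Ab 12.

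Among the lists, 3 of 8 Fc receptors were lower, and all 8 had a negative log2 fold change (median -0.79, and -0.52 in the reduced fit). Fcgr2b, the inhibitory IgG receptor, had 5.02, 5.19, 3.81, 5.2 and 5.14 CPM in Ab libraries, against 7.29, 10, 17.3, 35.1 and 13 CPM in AIA libraries. AIA 19 was highest, the groups did not overlap, and the log2 fold change was -1.76 ± 0.36 SE (adjusted p = 0.0185), and -0.83 in the reduced fit. The Fc receptor count was 0 without Ab 10 and 1 without Ab 21_8, AIA 18 or AIA 23. Macrophage markers were lower for 6 of 22 tested members, namely Ms4a7, Adgre1, Gpnmb, Mrc1, Cd68 and C1qa, and the median was -0.58, with -0.61 in the reduced fit. The summed macrophage list ranged from 3940 to 6810 CPM in Ab, 5510 to 10300 CPM in AIA and 5410 to 10600 CPM in CON libraries, and its part in the receptor results was not tested. Without Ab 10 that list had 2 lower members, and 3 without Ab 3, Ab 21_8, AIA 18, AIA 19 or AIA 23. Without Ab 12 or AIA 5 it had 10. Of 13 tested neutrophil genes, 1 was lower, Csf3r, a call lost in 7 of the 10 runs. Log2 fold changes of this list were positive for 6 and negative for 7 members (median -0.06, and -0.38 in the reduced fit). Its sum was 293 to 633 CPM in Ab and 154 to 514 CPM in AIA libraries. edgeR called 2 neutrophil genes higher without AIA 13 and 1 without AIA 5.

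Promoters of some of these receptor genes are shown because their transcripts were lower together. They were searched for the core letters bound by PU.1, an ETS transcription factor of myeloid cells. Sequences are the 250 bases before the annotated start in RefSeq, build GRCr8, with the letters GAGGAA, or TTCCTC for the other strand, in capitals. That motif was chosen after the values were seen. The receptor genes shown were picked without a rule, and all of them hold the motif. They do not give its share among receptor genes, and others, such as Ms4a4a and Siglec10, are not shown. Npr3, a higher gene described below, is shown beside the lower genes. The windows are chr4:157845561-157845810 on the plus strand for Clec4a1, chr1:74241950-74242199 (plus) for Lilrb2, chr1:78853253-78853502 (minus) for Lilrb4, chrX:30644176-30644425 (plus) for Tlr7, chr9:2329190-2329439 (plus) for Adgre1 and chr2:62658766-62659015 (minus) for Npr3.
Clec4a1: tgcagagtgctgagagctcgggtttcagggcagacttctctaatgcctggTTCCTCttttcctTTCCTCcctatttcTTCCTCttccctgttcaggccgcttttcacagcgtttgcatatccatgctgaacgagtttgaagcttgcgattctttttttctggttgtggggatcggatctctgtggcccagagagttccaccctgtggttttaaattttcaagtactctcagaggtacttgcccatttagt
Lilrb2: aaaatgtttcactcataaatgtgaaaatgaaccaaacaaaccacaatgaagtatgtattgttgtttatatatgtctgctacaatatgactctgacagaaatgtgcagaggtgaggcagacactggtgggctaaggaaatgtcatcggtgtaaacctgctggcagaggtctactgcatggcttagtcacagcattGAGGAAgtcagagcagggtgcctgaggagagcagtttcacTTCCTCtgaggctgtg
Lilrb4: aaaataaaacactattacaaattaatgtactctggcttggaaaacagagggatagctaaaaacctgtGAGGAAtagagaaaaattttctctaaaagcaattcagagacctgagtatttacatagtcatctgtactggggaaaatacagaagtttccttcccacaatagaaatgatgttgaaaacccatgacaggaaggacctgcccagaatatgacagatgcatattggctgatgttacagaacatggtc
Tlr7: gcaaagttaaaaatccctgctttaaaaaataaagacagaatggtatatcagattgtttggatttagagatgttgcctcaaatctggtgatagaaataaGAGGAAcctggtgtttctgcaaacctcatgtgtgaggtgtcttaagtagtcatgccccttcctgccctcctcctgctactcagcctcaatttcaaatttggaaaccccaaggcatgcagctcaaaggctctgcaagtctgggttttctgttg
Adgre1: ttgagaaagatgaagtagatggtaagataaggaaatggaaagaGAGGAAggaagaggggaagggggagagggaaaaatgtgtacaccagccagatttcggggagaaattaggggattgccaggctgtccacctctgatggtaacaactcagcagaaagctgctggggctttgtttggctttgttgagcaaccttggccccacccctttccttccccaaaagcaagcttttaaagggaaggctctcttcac
Npr3: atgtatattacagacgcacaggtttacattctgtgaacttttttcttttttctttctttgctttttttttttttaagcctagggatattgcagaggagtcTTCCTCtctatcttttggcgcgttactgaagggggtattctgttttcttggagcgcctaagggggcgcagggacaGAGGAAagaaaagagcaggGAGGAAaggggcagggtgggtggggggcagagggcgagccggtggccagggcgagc

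Clec4a1 and Npr3 held 3 matches each, Lilrb2 held 2, and the others 1. Of the lower genes with a promoter entry, 162 of 485 (33.4%) held GAGGAA on either strand, against 67 of 249 (26.9%) of the higher genes and 2872 of 12386 (23.2%) of all tested genes with an entry. Among genes called in every run the share was 33 of 83 (39.8%) for lower and 6 of 33 (18.2%) for higher genes. Of 6 motifs searched on both strands, the GC box GGGCGG went the other way, with 48.9% of the lower, 57.4% of the higher and 54.5% of all promoters. The RUNX motif TGTGGT was in 14.2%, 12% and 11.4%, TATAAA in 8.66%, 7.23% and 7.14%, TGANTCA in 6.8%, 4.42% and 4.55%, and CCAAT in 33.6%, 36.1% and 35%, in the same order of lower, higher and all. In lower and higher genes called in every run, in that order, GGGCGG was in 37.3% and 63.6% and TGTGGT in 19.3% and 9.09%. TATAAA was in 14.5% and 6.06%, TGANTCA in 3.61% and 6.06%, and CCAAT in 28.9% and 15.2%. GAGGAA was thus not alone in differing from its share among all promoters. Base composition differed too. The median number of CpG pairs per window was 9 in the lower, 13 in the higher and 15 in all tested genes. In genes called in every run it was 7 for lower and 10 for higher genes. A match is a stretch of letters and not a shown binding site, and its link to composition was not tested.

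T-cell and NK-cell genes were lower in Ab synovium in 9 of 22 tested members and higher in none (median -1.22, and -0.85 in the reduced fit). Among them were Cd2, Cd6, Cd8a, Cd28 and the CD3 chains Cd3e and Cd3g. The summed list overlapped, with 165 to 312 CPM in Ab, 246 to 393 CPM in AIA and 291 to 440 CPM in CON libraries. Cd8a, a chain of the CD8 co-receptor, had 0.991, 1.92, 1.18, 0.677 and 0.412 CPM in Ab libraries, against 2.72, 3.27, 3.47, 4.47 and 3.94 CPM in AIA libraries and 0.236 to 0.776 CPM in CON libraries. All AIA libraries, AIA 5 and 13 included, lay above all Ab libraries. Cd8a had a log2 fold change of -1.78 ± 0.36 SE (adjusted p = 0.0179), and -1.53 without AIA 18, 19 and 23 (adjusted p = 0.658). Cd2, an adhesion receptor, and Cd6, a scavenger-type receptor of T cells, had log2 fold changes of -1.91 ± 0.35 SE and -2.20 ± 0.41 SE (adjusted p = 0.0124 for both), and of -1.06 and -1.49 in the reduced fit. Runx3, a transcription factor of cytotoxic T cells, was 3.19-fold lower (log2 fold change -1.67, and -1.35 in the reduced fit). Without Ab 21_8 or AIA 18 the list had 5 lower members, and without AIA 23 it had 3. Of 14 tested B-cell and plasma-cell genes, 13 had a negative log2 fold change (median -0.79), but edgeR called none; 4 had an unadjusted p under 0.05, and DESeq2 called 2, while edgeR called 3 lower without AIA 5.

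Among cytokine genes and their receptors a few members were lower. Il17ra, the shared receptor chain for IL-17A and IL-17F, had 43.4, 53.4, 46.5, 51.9 and 36.6 CPM in Ab libraries, against 52.2, 73.7, 77.4, 84.3 and 78.2 CPM in AIA libraries. Ab 9 just exceeded AIA 5, and the log2 fold change was -0.66 ± 0.12 SE (adjusted p = 0.0125), and -0.44 in the reduced fit. Il7r, the interleukin-7 receptor of lymphocytes, was 4.00-fold lower (adjusted p = 0.0161), with a log2 fold change of -1.10 in the reduced fit. Of 53 tested interleukins, TNF family members and receptors, 6 were lower and none was higher, with a median of -0.39, and of -0.07 in the reduced fit. Tnf itself averaged 1.25 ± 0.62 CPM in Ab and 1.28 ± 0.47 CPM in AIA libraries (SD, n = 5 each; log2 fold change -0.03, edgeR adjusted p = 0.973). Tnfrsf11b, which encodes the osteoclast inhibitor osteoprotegerin, was lower (-0.87 ± 0.21 SE, adjusted p = 0.0274, and -0.98 in the reduced fit). That list had 2 lower members without Ab 10, Ab 21_8, AIA 18, AIA 19 or AIA 23, 11 without AIA 13 and 14 without AIA 5.

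Among chemokines and their receptors 6 of 31 were lower, and none was higher, with a median of -0.56, and of -0.08 in the reduced fit. Ccr2, the receptor that brings monocytes into tissue, had 4.09, 5.58, 3.1, 5.02 and 2.79 CPM in Ab libraries, against 8.36, 9.54, 15.7, 24.7 and 21 CPM in AIA libraries. The groups did not overlap, and the log2 fold change was -1.94 ± 0.39 SE (adjusted p = 0.0161); the call was lost without Ab 10, and the reduced fit gave -1.12. Ccl9, a chemokine of rodents that attracts myeloid cells, was called in every run (-1.73 ± 0.31 SE, adjusted p = 0.0119), with -1.41 in the reduced fit. The count was 1 without Ab 10, 3 without Ab 9, Ab 21_8, AIA 19 or AIA 23, and 10 without AIA 5.

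Cell-cycle genes were lower for 9 of 32 tested members, among them Ccna2, Aurkb, Plk1 and Top2a, with a median of -1.17, and of 0 in the reduced fit. Their mean level, on the log2 scale relative to CON, was -0.24 to 0.63 in Ab libraries, against 0.23 and 0.46 in AIA 5 and 13 and 1.49 to 1.87 in AIA 18, 19 and 23. Ccnd1, or cyclin D1, was higher (0.52 ± 0.12 SE, adjusted p = 0.0286, and 0.57 in the reduced fit), though its call was lost without Ab 3, Ab 21_8, AIA 18, AIA 19 or AIA 23. No cell-cycle gene was called in every run. The lower count was 0 without Ab 10, Ab 21_8, AIA 18, AIA 19 or AIA 23, 1 without Ab 9, 2 without Ab 12, 5 without Ab 3, 20 without AIA 13 and 22 without AIA 5.

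The higher genes were fewer and of mixed function. Fgf1, a broadly acting growth factor that is also made by fat, had 25.8, 39, 41.4, 37.2 and 24.9 CPM in Ab libraries, against 18.3, 13.1, 13.9, 11.9 and 16.1 CPM in AIA libraries and 21.1 to 34.5 CPM in CON libraries. All Ab libraries lay above all AIA libraries and within or above the CON range. The log2 fold change was 1.20 ± 0.17 SE (adjusted p = 0.00926), and 1.09 without AIA 18, 19 and 23 (adjusted p = 0.563).

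Npr3, the clearance receptor for natriuretic peptides, had 90.5, 123, 225, 220 and 75.9 CPM in Ab libraries, against 44.1, 34.8, 16.1, 21.2 and 30 CPM in AIA libraries. Ab 10 and 12 were the highest and AIA 18 and 19 the lowest, with no overlap (log2 fold change 2.33 ± 0.37 SE, adjusted p = 0.0107, and 1.89 in the reduced fit). Itga7, a laminin-binding integrin chain, had 222, 405, 492, 403 and 256 CPM in Ab libraries, against 209, 141, 120, 134 and 154 CPM in AIA libraries. Ab 3 and AIA 5 nearly met, and the log2 fold change was 1.23 ± 0.20 SE (adjusted p = 0.0107), and 1.02 in the reduced fit. Rgs7, a brake on G-protein signalling, had 5.11 to 13.2 CPM in Ab libraries, against 1.58 to 5 CPM in AIA and 1.62 to 3.64 CPM in CON libraries, and was higher against AIA (1.76 ± 0.32 SE, adjusted p = 0.0124, and 1.36 in the reduced fit) and against CON (1.89, adjusted p = 0.00266).

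Several other genes called in every run act in lipid and nutrient handling. Dhcr7, the last enzyme of cholesterol synthesis, was 2.38-fold higher, with 36.6, 47.9, 65.8, 70.5 and 40.2 CPM in Ab libraries, against 22.6, 24.7, 16.7, 17.2 and 28.7 CPM in AIA libraries. The groups did not overlap, and the log2 fold change was 1.25, and 1.14 in the reduced fit. Ttpa, the alpha-tocopherol transfer protein, was 2.69-fold higher, Grb14, an inhibitory adaptor of the insulin receptor, 3.14-fold, and Acer2, a ceramidase, 1.97-fold (adjusted p = 0.0144, 0.0124 and 0.0124). Their log2 fold changes were 1.43, 1.65 and 0.98, and in the reduced fit 1.07, 1.59 and 0.57. Chrdl1, a secreted BMP antagonist, was 1.98-fold higher (adjusted p = 0.0156), and Ddit3, the stress-induced transcription factor CHOP, 1.58-fold (adjusted p = 0.0161). No other gene of the 28 tested in the secretory pathway and unfolded protein response was called, although 23 of 28 log2 fold changes were negative, and 8 members were lower without AIA 5 and 2 without AIA 13.

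Adipocyte genes were higher in 3 of 22 tested members and lower in none, with 21 positive log2 fold changes and a median of 0.65, and of 0.08 in the reduced fit. Lep, the fat hormone leptin, had 116, 291, 382, 300 and 149 CPM in Ab libraries, against 144, 82.9, 40.5, 43.1 and 77.5 CPM in AIA libraries. AIA 5 exceeded Ab 3, and the log2 fold change was 1.67 ± 0.37 SE (adjusted p = 0.0219), and 1.12 in the reduced fit. The summed list ranged from 22400 to 34400 CPM in Ab, 11500 to 31600 CPM in AIA and 15000 to 20200 CPM in CON libraries, with AIA 18 and 19 the lowest of all and AIA 5 and 13 within the Ab range. The part of this spread in the higher genes was not tested. The count of higher adipocyte genes was 0 without Ab 10, AIA 18 or AIA 19, 1 without Ab 9 or AIA 23, 5 without Ab 3, 7 without AIA 5 and 9 without AIA 13. All 41 tested subunits of oxidative phosphorylation had positive log2 fold changes (median 0.25, and 0.14 in the reduced fit), but edgeR called none; 21 had an unadjusted p under 0.05, and DESeq2 called 4. With 1 library left out, 13 subunits were higher without AIA 13, 10 without Ab 3 and 2 without AIA 5. Of the list around ANGPTL4 and lipoprotein lipase, edgeR called none of 21 tested members, 6 had an unadjusted p under 0.05 and DESeq2 called 3; without AIA 5 and without AIA 13, 1 was higher and 1 lower. Lpl, the lipase itself, had a log2 fold change of 0.62 ± 0.26 SE (adjusted p = 0.164).

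Interferon-stimulated genes were among the higher genes. Of 30 tested members 3 were higher, Ubd, Gbp5 and Tap1, and none was lower, with 27 positive log2 fold changes and a median of 0.30, the same as in the reduced fit. Ubd, the ubiquitin-like modifier FAT10, had 13.9, 25.6, 21.7, 18.2 and 16.3 CPM in Ab libraries, against 5.64, 8.65, 7.95, 8.79 and 4.85 CPM in AIA libraries and 0 to 0.396 CPM in CON libraries. The 3 groups did not overlap, with a log2 fold change of 1.41 ± 0.30 SE against AIA (adjusted p = 0.0205) and 1.42 in the reduced fit; the call was lost without Ab 10 or without AIA 23. Gbp5, a guanylate-binding protein, was 1.48-fold higher (adjusted p = 0.0276), but its call was lost without Ab 10, Ab 21_8, AIA 18 or AIA 23. Igtp, an interferon-inducible GTPase, was called in every run (0.49 ± 0.10 SE, adjusted p = 0.0156). The list had 0 higher members without Ab 10 or AIA 23, 1 without Ab 21_8 or AIA 18, and 11 without AIA 13.

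Basement membrane genes were higher for 3 of 20 tested members, with 17 positive log2 fold changes (median 0.19, and 0.24 in the reduced fit). Hspg2, or perlecan, had 1190, 1200, 1270, 1170 and 1080 CPM in Ab libraries, against 1030, 962, 906, 831 and 847 CPM in AIA libraries (log2 fold change 0.37 ± 0.10 SE, adjusted p = 0.0466). The groups did not overlap, but the call was lost in 8 of the 10 runs. Npnt, or nephronectin, was higher (0.52 ± 0.11 SE, adjusted p = 0.0209), a call lost without AIA 18 or AIA 19. Lama2, a laminin chain, was lower (-1.19 ± 0.32 SE, adjusted p = 0.0397), a call lost in 7 of the 10 runs, with -0.43 in the reduced fit. The higher count was 0 without AIA 18 or AIA 19, 1 without Ab 9, Ab 10, Ab 12, Ab 21_8 or AIA 23, and 5 without AIA 5. Across the endothelial, smooth muscle, Schwann cell, circadian clock, Hedgehog and Notch, bone formation and mast cell lists, edgeR called none of 121 tested members; 25 had an unadjusted p under 0.05, and DESeq2 called 8. With 1 library left out, edgeR called up to 6 members of these lists in 1 direction, the Schwann cell genes that were higher without AIA 5. Without AIA 13 it called 2 endothelial genes higher, and 2 smooth muscle and 2 Hedgehog and Notch genes lower.

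**Figure D5:**
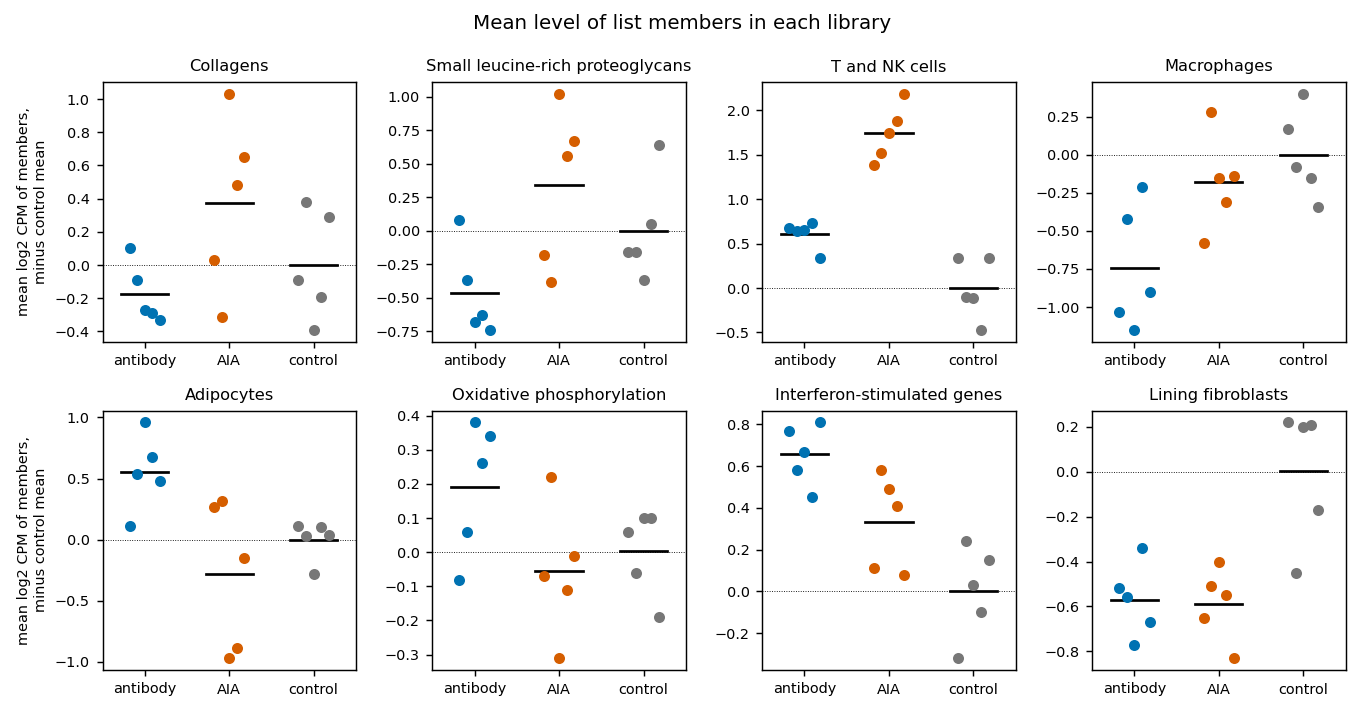
Points give, for each library, the average over members of each of 8 lists, in log2 CPM, minus the CON mean, with Ab (blue), AIA (orange) and CON (grey) side by side and bars at group means. Collagens are highest in AIA 18, 19 and 23, and lining fibroblast genes overlap between Ab and AIA. This average of T and NK cell genes is higher in all AIA than in all Ab libraries, although their summed CPM overlaps.

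Set beside the control rats, Ab synovium differed from CON in 543 higher and 748 lower genes (3.38% and 4.66% of the tested genes); this comparison shares the Ab libraries with the one against AIA. AIA differed from CON in 1370 genes (8.54%). Siglec10, a sialic acid receptor of leukocytes, had 3.1, 3.18, 1.5, 3.66 and 2.73 CPM in Ab libraries, against 7.17, 6.02, 8.17, 6.66 and 6.3 CPM in AIA libraries and 7.77 to 14.9 CPM in CON libraries. Its log2 fold change was -1.27 ± 0.22 SE against AIA (adjusted p = 0.0107, and -1.22 in the reduced fit) and -1.93 against CON (adjusted p = 0.000157). Adamts16 was also below CON (-1.22, adjusted p = 0.0127), and so was Pdpn (-0.91, adjusted p = 0.0053). For Mmp2, Sfrp4 and Lox the Ab values against CON were -0.40, 0.23 and 0.05 (adjusted p = 0.323, 0.781 and 0.966). Grifin, a galectin-related gene, was above both AIA (2.05 ± 0.31 SE, adjusted p = 0.0107, and 1.69 in the reduced fit) and CON (1.28, adjusted p = 0.0185).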

How the data were processed

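RNA was sequenced from 15 synovial libraries, 5 per group; per the labels' protocols, 1.3 ug of total RNA went into each SMARTER mRNA library. The authors deposited raw counts per gene symbol, with no normalization, and FPKM values, which equal count per length and per library total within 0.1% for 100% of 291027 values checked; FPKM was not tested. The submitters' processing notes name the builds GRCm38 and mm10, which are mouse builds, for these rat samples. The names of aligner and counter were not given in the sources used here, and the strandedness of counting is not stated, so antisense partners cannot be told apart. The counts carry no molecular identifiers.

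In R 4.3.3, edgeR 4.0.16 was run on the counts with filterByExpr, TMM factors, 1 dispersion model over all 15 libraries and the quasi-likelihood F test of Ab against AIA. The threshold was an adjusted p of 0.05 over all tested genes. CPM is the count scaled to the TMM-adjusted library total, and log2 CPM uses a prior count of 2. Each SE is the size of the log2 fold change divided by the square root of the F statistic. It rests on the dispersion model over all 15 libraries, CON included, and does not give the spread of the AIA libraries alone. Each library is taken as 1 rat, which the labels do not state, so p-values measure the spread between libraries. Alternatives used DESeq2 1.42.0, limma 3.58.1, other scalings and filters, and left-out libraries.

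Genes were named by a rule: Angptl4; the 12 largest changes and 8 lowest p-values per direction among called, fully named, non-overlapping genes with average log2 CPM of at least 1; and up to 3 called members per list, or the most abundant member where none was called. Other named genes were chosen after their values were seen. The comparison and the 41 lists were chosen with earlier results of these data known. Promoters come from RefSeq tables of GRCr8, matched by symbol. A few genes are not reported here.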

Additional observations from a re-analysis of the deposited data

Results flagged for a closer look

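Of 226 groups checked, the 5 Ab and the 5 AIA libraries of 113 genes, 8 (3.54%) held a library whose gap to its nearest neighbour exceeded 0.71 of the group's range on the log2 CPM scale. Chance flags about 1 in 20 groups.

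Among Ab libraries, Ab 10 was low for Fcgr2b, with a gap of 0.885 of the range (log2 CPM 1.95, nearest library 2.34), and for Anxa8, with 0.758 (-1.98, nearest -0.93). Ab 21_8 was low for the cyclin gene Ccna2, with 0.738 (-1.08, nearest 0.02). Ab 3 was high for the mitotic kinase Aurkb, with 0.734 (2.23, nearest 1.26), and for Gbp5, with 0.715 (5.24, nearest 4.89).

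Among AIA libraries, AIA 5 was low for Fcgr1a, with 0.752 (4.34, nearest 5.04), and for Il17ra, with 0.721 (5.71, nearest 6.21). AIA 19 was high for the skeletal muscle myosin Myh4, with 0.724 (12.07, nearest 0.43). The call of Fcgr2b was lost without Ab 10, and that of Anxa8 without Ab 10, Ab 21_8 or AIA 18.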

How the results depend on the processing

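The counts of 294 higher and 641 lower genes were within 1.5 times of these with RLE or upper-quartile factors, no filter and a strict filter. DESeq2 gave 659 higher and 1199 lower, limma voom with a spread per group 193 and 355, a fit of the 10 Ab and AIA libraries alone 35 and 77, a test against a change of 1.5-fold 0 and 2, leaving out AIA 19 and CON 2 46 and 174, and leaving out AIA 18, 19 and 23 0 and 1. At an unadjusted p under 0.05 the fit of all libraries had 1638 higher and 2124 lower genes. With 1 library left out, counts ranged from 48 to 754 higher and from 139 to 1278 lower. The cause was not tested.

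Without AIA 18, 19 and 23, Tnn stood at 0.19, Acan at 0.23 and Hadha at -0.12 (log2), against -8.07, -7.06 and 0.19 with all libraries. Values near 0 changed sign: Per1 (-0.10) was 0.06 under voom and 0.11 without AIA 5 or AIA 18, with a range of -0.30 to 0.11 over left-out libraries; Hba-a1 (-0.08) was 0.01 under voom, 0.04 without Ab 21_8 and 0.30 without AIA 13 (range -0.28 to 0.30); Prg4 (-0.01) was 0.02 under voom, 0.07 without Ab 10 or AIA 13, 0 without AIA 5 and 0.04 without AIA 18 (range -0.15 to 0.07). Angptl4 was not called in any alternative; an exact two-sided permutation test gave p = 0.222, where the smallest possible is 0.00794. No paired analysis was possible because no replicate number is shared between the groups. The spread in AIA libraries limits what 5 against 5 can show: the median SD of log2 CPM of lower genes was 0.284 in Ab and 0.466 in AIA libraries.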
